A study of Mus musculus with 4 samples.

Results

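The 39 genes described here are S-phase genes, named for a list that is used to mark S phase, the time when a cell copies its DNA. They were taken as the rows of the deposited expression table whose gene symbol is in a fixed member list, and all 39 were found among the 52636 genes of the table. They fall into 8 genes of the replicative helicase and its loading, 6 of DNA synthesis, 3 of nucleotide supply, 9 of chromatin assembly and chromatin-bound proteins, 9 of fork protection and repair, and 4 regulators. A list of 36 other replication genes and a list of 26 G2 and mitosis genes were read beside them.

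The study profiled single cells of the mouse mammary luminal epithelium by droplet RNA sequencing with unique molecular identifiers (UMIs), each of which marks 1 captured transcript. WT cells were Erbb3+/+;MMTV-Cre and mutant cells were Erbb3V943R/V943R;MMTV-Cre, both on C57BL/6N at 6 weeks of age. ErbB3 is a neuregulin receptor that signals mostly through its ErbB partners, and V943R is the amino acid change carried on both alleles of the mutant. Both alleles are conditional knock-ins, which express wild-type ErbB3 until Cre recombinase removes a cassette and turns V943R on. MMTV-Cre is a Cre transgene that is active mainly in mammary epithelium, and the WT animals carried it as well. Thoracic and abdominal glands of 3 mice were pooled per genotype, luminal cells were sorted, and 2 libraries were deposited per genotype, here called A and B. Each genotype is therefore 1 pool of cells, no test between genotypes was possible, and every interval below covers counting error only.

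Before a cell divides it loads the MCM helicase at replication origins, fires it with Cdc45 and the GINS complex, and builds new strands behind the sliding clamp PCNA. E2F transcription factors switch on many of the genes needed for this as a cell passes from G1 into S phase, and genes for chromosome segregation follow in G2 and mitosis. In the mammary gland, puberty is a time of luminal expansion, and dividing cells occur both among luminal progenitors and among hormone-receptor-bearing mature luminal cells.

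E2F factors bind short GC-rich sequences that follow a run of T, so the promoters of the members were read for TTTCGCGC, TTTGGCGC, TTTCCCGC and TTTGCCGC on either strand, overlaps allowed, in the 300 bases that RefSeq gives around each start site (GRCm38.p6). Of the 39 members 29 had an entry, and 12 of the 29 (41.4%) held at least 1 of these words, as did 12 of 29 other replication genes (41.4%), 1 of 24 G2 and mitosis genes (4.17%) and 704 of 27025 genes in all (2.60%). TTTGCCGC was in 0 of the members, and the other words were in 4 or 5 members each. CCAAT on either strand was in 20 of the 29 members (69.0%), 15 of the 29 other replication genes (51.7%), 19 of the 24 G2 and mitosis genes (79.2%) and 41.1% of all genes. The 30-base windows of 9 members follow, 5′ to 3′ on the strand of the gene, with the matched letters in capitals. They are shown because these genes span the range of cluster patterns described below, from *Cdc6* and *Mcm5*, which were several-fold higher in cluster 5 than in cluster 6, to *Pold3* and *Ubr7*, the members with the lowest ratios of cluster 5 over the mature luminal clusters outside clusters 5 and 6.
Mcm6 (chr1:128359795-128359824, minus strand): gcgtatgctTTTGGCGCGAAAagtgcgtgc
Mcm5 (chr8:75109347-75109376, plus strand): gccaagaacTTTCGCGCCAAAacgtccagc
Cdc6 (chr11:98908002-98908031, plus strand): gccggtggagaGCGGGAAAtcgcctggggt
Hells (chr19:38930917-38930946, plus strand): gaccaccgggtTTTCCCGCgaaagagaagc
Clspn (chr4:126556990-126557019, plus strand): accgcgtctggGCGCGAAAgctcgaacttc
Dtl (chr1:191575534-191575563, minus strand): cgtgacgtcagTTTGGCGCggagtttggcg
Cdca7 (chr2:72476137-72476166, plus strand): tgcgtcccggcGCGGGAAAgccggtggccc
Pold3 (chr7:100121467-100121496, minus strand): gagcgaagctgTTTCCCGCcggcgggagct
Ubr7 (chr12:102757968-102757997, plus strand): cggcggccactTTTCCCGCctcctcctggg

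The capitals of *Mcm6* and *Mcm5* are a pair of overlapping words on opposite strands. The capitals begin at -110 for *Mcm6*, -153 for *Mcm5*, -138 for *Cdc6*, -62 for *Hells*, -8 for *Dtl* and -71 for *Cdca7* relative to the RefSeq start site, and at 22, 18 and 5 bases for *Clspn*, *Pold3* and *Ubr7*. *Mcm6* has another TTTGGCGC, not shown, at -47. The promoters of *Ung*, *Rrm2* and *Tyms* held none of these letters in the same window. A match is a description of the letters and not of a bound site.

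The table held 32439 cells in 4 libraries, which summed to 35069465 and 38009351 UMIs for WT and to 30019745 and 32394110 UMIs for the mutant, with medians of 3154 to 4027 UMIs per cell. The authors' 13 clusters were used as deposited. They assigned clusters 1 and 2 to luminal progenitors, cluster 3 to luminal intermediate cells, clusters 4 to 11 to mature luminal cells and clusters 12 and 13 to rare cells. The labels held for the dividing clusters, since 5 mature luminal markers (*Prlr*, *Pgr*, *Esr1*, *Cited1*, *Ly6a*) summed to 4342 counts per 1000000 UMIs (CPM) in cluster 5 and 3901 in cluster 6 against 818 in cluster 2, while 5 progenitor markers (*Kit*, *Elf5*, *Aldh1a3*, *Cd14*, *Csn3*) summed to 3436 in cluster 2 against 67.8 and 78.5 in clusters 5 and 6. Over all libraries, basal markers summed to at most 28.5 CPM and immune markers to at most 13.01 CPM in these 3 clusters, with *Cd3e* at 0 in each. The highest single libraries, both in cluster 2, had 35.9 CPM of basal and 33.7 CPM of immune markers. A total of 511 cell barcodes occurred in 2 or more libraries, in 1027 cells, and the ratios of cluster 5 to cluster 6 and to the other mature luminal clusters were the same to 2 decimals without them. Clusters were made from the same cells and genes that are read here, so differences between clusters are descriptions with no test.

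S-phase transcripts were concentrated in clusters 2, 5 and 6. These clusters held 12.96% of all cells and 17.3% of all UMIs, but 47.8% of the 135683 UMIs of the 39 genes. In cluster 5 the summed level was 4162 and 4309 CPM for WT and 3981 and 4178 CPM for the mutant, the highest of clusters 1 to 11. Cluster 2 followed with 3036 and 2993 CPM in WT and 3197 and 3078 in mutant libraries. The libraries of these clusters did not overlap, and cluster 5 was 1.36-fold above cluster 2.

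Cluster 6, the mature luminal cluster richest in mitotic transcripts, held far less S-phase RNA than cluster 5. Its summed level was 1666 and 1691 CPM in WT and 1583 and 1562 in mutant libraries, so cluster 5 was 2.56-fold higher (log2 ratio 1.36, 95% interval 1.33 to 1.38). The G2 and mitosis list ran the other way, with 1843, 1998, 1797 and 1662 CPM in cluster 5 and 7655, 7457, 6637 and 7048 in cluster 6 (WT A, WT B, mutant A, mutant B), a log2 ratio of -1.98. Cluster 2 was high in both lists at once, with 7526 and 8175 CPM of G2 and mitosis transcripts in WT and 6967 and 7556 in mutant libraries.

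**Figure D1:**
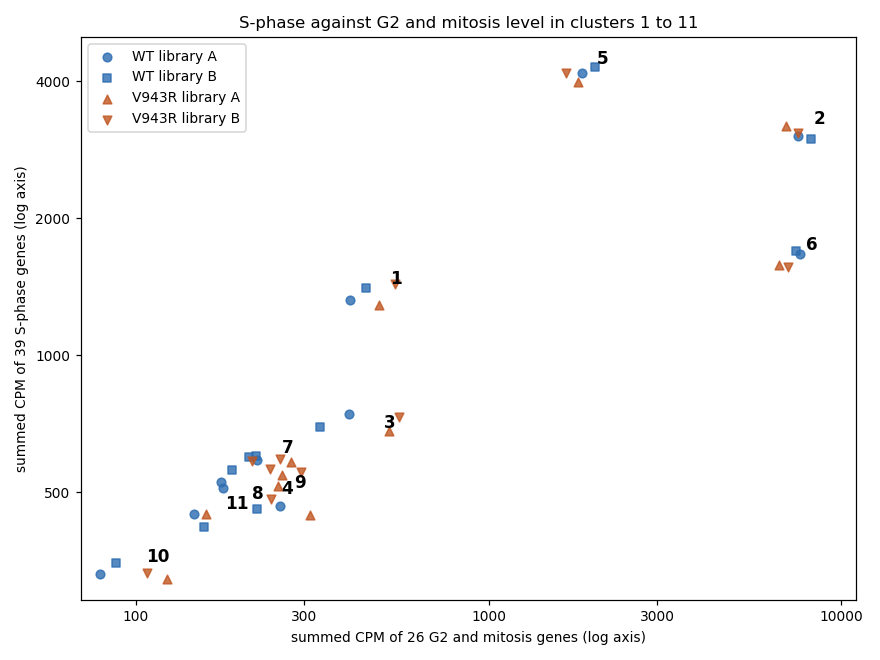
Summed CPM of the 39 S-phase genes (vertical, log axis) against summed CPM of the 26 G2 and mitosis genes (horizontal, log axis), 1 point per library in each of clusters 1 to 11, numbered. The 4 libraries of cluster 5 lie at the top, from 3981 to 4309 CPM of S-phase and from 1662 to 1998 CPM of mitotic transcripts, those of cluster 6 lie at 1562 to 1691 and 6637 to 7655 CPM, and those of cluster 2 are high on both axes.

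Among clusters 1 to 11, cluster 1, the larger progenitor cluster, stood between the dividing clusters and the rest. It had 1325 and 1405 CPM in WT and 1292 and 1435 in mutant libraries, against 741 and 696 in WT and 681 and 731 in mutant luminal intermediate cells. The 6 remaining mature luminal clusters (4, 7, 8, 9, 10 and 11, pooled and called the other mature luminal clusters) had 477, 497, 490.4 and 517 CPM. Cluster 10 was lowest for the sum, with 331, 349, 323 and 332 CPM, and was the lowest cluster for 18 of the 39 members in each genotype. How many of all genes were lowest in cluster 10 was not counted.

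The member ranking across clusters was nearly uniform. Ranks were not computed for all genes, so the counts in this paragraph describe the members only. The highest level among clusters 1 to 11 was in cluster 5 for 30 members in WT and 27 in mutant cells, and in cluster 2 for the other 9 and 12. Clusters 5 and 2 were the top pair for 38 members in WT and 36 in mutant cells. The exceptions were *Pold3*, whose second-ranked cluster was cluster 1 in both genotypes, and in mutant cells *Ubr7* and *Wdr76*, whose second-ranked clusters were 1 and 9. Mutant cluster 9 held only 457 cells and 663236 UMIs of all genes, so the level of a gene there rests on few UMIs. The next rank divided the members, with cluster 6 in that place for 23 members and cluster 1 for 13 in WT.

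**Figure D2:**
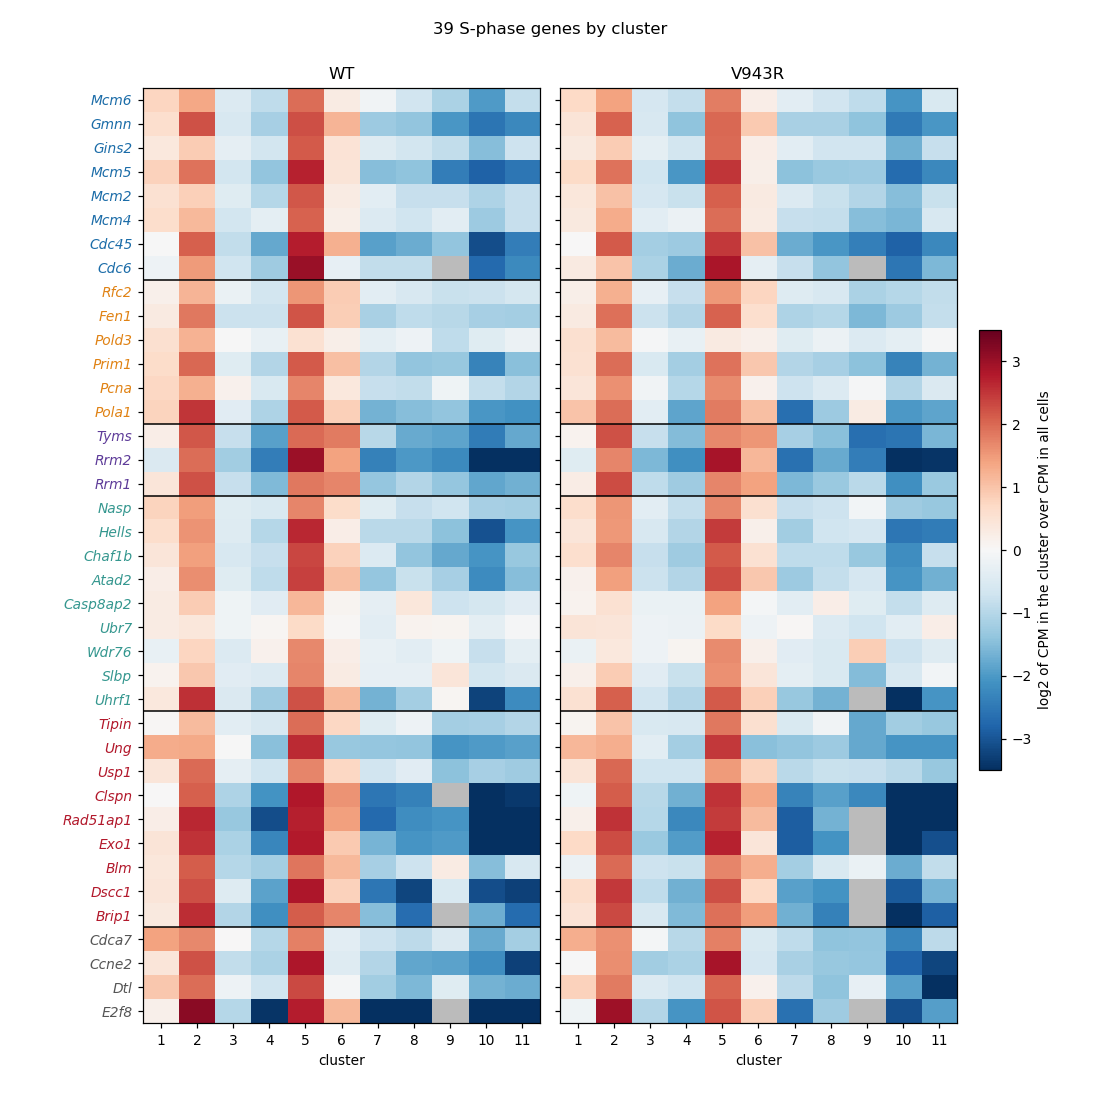
Log2 of the CPM in a cluster over the CPM in all cells of the same genotype, for the 39 members (rows, grouped by role) in clusters 1 to 11 (columns), WT left and mutant right; red is above and blue below the level in all cells, and grey marks a gene with 0 UMIs. The columns of clusters 5 and 2 are the reddest for nearly all members, and cluster 6 is red for the nucleotide genes and blue for *Ung*.

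A fold rule was used to count members, requiring a CPM ratio of 2 or more within each of the 4 libraries and at least 50 UMIs on the higher side. For cluster 5 over the other mature luminal clusters, 4.13% of 13576 genes passed, and 37 of the 39 members passed. The members not passing were *Pold3* and *Ubr7*. The median log2 ratio of the members was 3.40, against -0.07 over all genes with enough UMIs, and all 26 G2 and mitosis genes and 34 of the 36 other replication genes passed as well. For cluster 6 over the same clusters, 3.75% of 13740 genes passed, and so did 24 of the 37 members with enough UMIs (median log2 ratio 1.61, all genes 0.00). For cluster 2 over cluster 1, 2.86% of 10850 genes passed, with 18 of 38 members (median log2 ratio 1.18, all genes -0.04) and all 26 G2 and mitosis genes.

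Of the cluster comparisons made with the 2-fold rule, cluster 5 over cluster 6 had the fewest genes past it. This comparison, like that of cluster 1 with the other mature luminal clusters below, was not among those planned. Only 81 of 10946 genes (0.74%) were at least 2-fold higher in cluster 5 in every library, and 25 of these were among the 39 members. The members' median log2 ratio was 1.40 against -0.04 over all genes. In 35 members all 4 cluster 5 libraries were above all 4 cluster 6 libraries, which held for 9.51% of the same 10946 genes. The reverse held for 0 members and for 12.3% of the genes. *Pold3*, *Rrm1*, *Tyms* and *Brip1* overlapped. Of the 36 other replication genes 15 passed in the same direction and 1 in the opposite one, and of the G2 and mitosis list 0 passed and 17 were at least 2-fold lower. Median depth was similar in these clusters, at 5032.5 and 5553.5 UMIs per cell in cluster 5 (WT, mutant) and 4703.5 and 5477.5 in cluster 6.

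**Figure D3:**
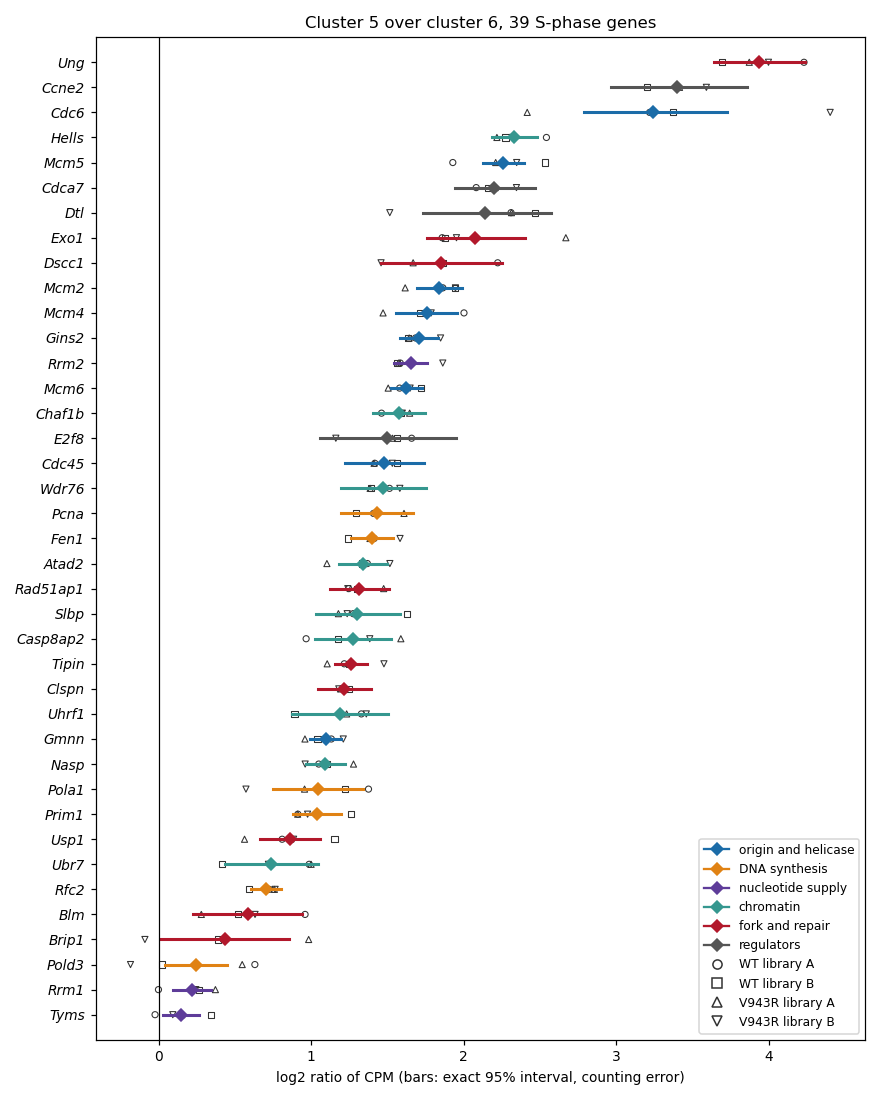
Log2 ratio of cluster 5 over cluster 6 for each member, sorted and coloured by role; the diamond is the value over all libraries, the bar its 95% counting interval and the open symbols are single libraries. Values over all libraries run from 0.15 for *Tyms* to 3.93 for *Ung*.

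The helicase group showed the steepest drop from cluster 5 to cluster 6 after the regulators, with a log2 ratio of 1.66 (1.61 to 1.71) for its summed level, and 7 of its 8 members passed the rule. *Mcm6*, a subunit of the helicase ring and the member with most UMIs (11384), had 315, 331, 286 and 299.9 CPM in cluster 5, 231, 197, 234 and 211 in cluster 2, 105, 100.2, 101 and 95.7 in cluster 6, and 142, 142, 131 and 138 in cluster 1 (WT A, WT B, mutant A, mutant B, here and below). Cluster 6 was thus below cluster 1 in every library, and the log2 ratio of cluster 5 over cluster 6 was 1.62 (1.52 to 1.72). *Gins2*, a subunit of the GINS complex that activates the helicase, had 220.2, 246, 188 and 214 CPM in cluster 5 and 68.5, 79.3, 60.2 and 59.4 in cluster 6, a log2 ratio of 1.71 (1.58 to 1.83).

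*Gmnn*, which encodes geminin, the inhibitor that keeps origins from being loaded again until the cell has divided, was the helicase-group member not past the rule. It had 281, 272, 224 and 254 CPM in cluster 5, 128, 132, 115 and 109.95 in cluster 6, and 261, 275, 252 and 252 in cluster 2. The log2 ratio to cluster 6 was 1.09 (1.00 to 1.19), and clusters 5 and 2 overlapped. *Cdc6*, which loads the helicase at origins, had the highest ratio of cluster 5 over cluster 6 in the helicase group, at 9.46-fold (log2 3.24, 2.79 to 3.73). Its levels were 38.5, 42.1, 32.9 and 38.7 CPM in cluster 5 and 4.14, 4.06, 6.17 and 1.83 in cluster 6, so the libraries were far apart. *Mcm5*, another ring subunit, was 4.79-fold higher in cluster 5 (log2 2.26, 2.12 to 2.40), and *Mcm2*, *Mcm4* and *Cdc45* had log2 ratios of 1.84, 1.76 and 1.48.

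DNA synthesis genes differed less between clusters 5 and 6, with a log2 ratio of 0.93 (0.87 to 0.99) for the group and 2 of 6 members past the rule. *Rfc2*, a subunit of the clamp loader, had 237, 246, 239 and 229.6 CPM in cluster 5 and 143, 164, 141 and 135 in cluster 6 (log2 ratio 0.70, 0.61 to 0.80). The cluster 5 libraries were all above those of cluster 6, by 1.63-fold. *Fen1*, the nuclease that trims the flaps between Okazaki fragments, had 161, 164, 148 and 153 CPM in cluster 5 and 60.6, 69.4, 56.6 and 50.9 in cluster 6 (log2 1.40, 1.26 to 1.53). *Pola1*, *Prim1* and *Pcna*, which encode the catalytic subunit of polymerase alpha, primase and the sliding clamp, had log2 ratios of 1.04, 1.04 and 1.43.

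*Pold3*, an accessory subunit of polymerase delta, had the lowest ratio of cluster 5 over the other mature luminal clusters, at 1.67-fold. It had 58.3, 41.7, 42.9 and 41.6 CPM in cluster 5, 72.3, 84.0, 89.8 and 58.8 in cluster 2, 37.7, 41.0, 29.4 and 47.3 in cluster 6 and 26.6, 28.6, 27.3 and 27.5 in the other mature luminal clusters. Only 24.3% of its UMIs came from clusters 2, 5 and 6, against a median of 52.3% over the members.

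Nucleotide supply was the group kept highest in cluster 6. *Tyms*, thymidylate synthase, had 133, 146, 128 and 113 CPM in cluster 5, 135, 115, 115 and 106 in cluster 6 and 149, 173, 168 and 185 in cluster 2. Clusters 5 and 6 overlapped (log2 ratio 0.15, 0.03 to 0.27), and cluster 2 was above both in every library. *Rrm1*, the large subunit of ribonucleotide reductase, behaved alike, with a log2 ratio of 0.22 (0.09 to 0.35). *Rrm2*, the regulated small subunit of the same enzyme, did not: it had 237, 281, 270.0 and 325 CPM in cluster 5, 123, 130.2, 118 and 143 in cluster 2, 79.1, 94.8, 90.7 and 89.4 in cluster 6, and 4.46, 5.38, 7.25 and 7.03 in the other mature luminal clusters. Its log2 ratio of cluster 5 over cluster 6 was 1.65 (1.54 to 1.76), and the 77.5% of its UMIs in clusters 2, 5 and 6 was the highest share of the 39 members.

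Among the chromatin genes, 5 of 9 passed from cluster 6 to cluster 5, and the group log2 ratio was 1.497 (1.43 to 1.56). *Hells*, a chromatin remodeller required for DNA methylation, had 215, 209.6, 211 and 229 CPM in cluster 5 and 36.9, 43.4, 45.3 and 45.8 in cluster 6, which was below the 48.2, 56.7, 48.9 and 59.9 CPM of cluster 1. Its log2 ratio was 2.33 (2.19 to 2.48). *Nasp*, a histone chaperone, had 153, 156, 156 and 163 CPM in cluster 5 and 73.8, 72.8, 64.2 and 83.6 in cluster 6 (log2 1.09, 0.97 to 1.22). *Chaf1b*, a subunit of the complex that deposits histones behind the fork, had 123, 121, 99.8 and 101 CPM against 44.8, 40.3, 31.9 and 33.4 (log2 1.57, 1.41 to 1.75).

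*Casp8ap2*, which takes part in histone gene expression, *Wdr76* and *Ubr7* were spread over many cells, with 28.1%, 33.2% and 21.5% of their UMIs in clusters 2, 5 and 6. *Ubr7* had 23.1, 26.6, 21.8 and 25.3 CPM in cluster 5 and 14.5, 14.2, 11.7 and 14.3 in the other mature luminal clusters, the lowest share of the set. *Wdr76* had 41.9, 37.4, 37.9 and 45.0 CPM in cluster 5 and 10.2, 9.82, 9.90 and 10.7 in the other mature luminal clusters, and *Casp8ap2* 40.5, 42.1, 48.0 and 48.8 against 15.1, 15.4, 13.5 and 15.8. With *Pold3* these were the 4 members least concentrated in the dividing clusters. Of the 4, 3 have E2F-type letters in the promoter window, and a relation of the letters to the share of UMIs was not tested.

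The fork and repair group held the widest range of ratios, from 1.35-fold for *Brip1* to 15.3-fold for *Ung*. *Ung*, the glycosylase that removes uracil from DNA, had 148, 136, 143 and 146 CPM in cluster 5 but 7.91, 10.5, 9.79 and 9.16 in cluster 6, a log2 ratio of 3.93 (3.64 to 4.24). The cluster 6 levels lay at those of the other mature luminal clusters (7.54, 7.68, 8.63 and 9.99 CPM). In the progenitors *Ung* did not separate the clusters, with 63.4, 52.3, 64.9 and 62.5 CPM in cluster 2 and 58.8, 55.6, 56.2 and 61.5 in cluster 1 (log2 0.07, -0.15 to 0.28).

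*Tipin*, which stabilises stalled forks together with Timeless, had 253, 273, 235 and 253 CPM in cluster 5 and 109, 115, 109 and 90.9 in cluster 6 (log2 1.26, 1.16 to 1.37). *Usp1*, which removes ubiquitin from PCNA, was 1 of 5 members with every cluster 2 library above every cluster 5 library, at 70.3, 79.9, 87.7 and 82.8 against 60.7, 64.0, 54.7 and 63.6 CPM. The others were *Pold3*, *Rrm1*, *Tyms* and *E2f8*, and 28.8% of the 9888 genes with at least 50 UMIs on the higher side had the same order. In 21 members all cluster 5 libraries were above those of cluster 2, as in 18.3% of those genes. *Clspn*, the claspin adaptor of the replication checkpoint, and *Rad51ap1* were among the members most confined to the dividing clusters, with 74.5% and 74.4% of their UMIs there. *Clspn* had 93.0, 105, 85.3 and 82.3 CPM in cluster 5 and 1.87, 2.05, 2.82 and 2.75 in the other mature luminal clusters.

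All 4 regulators passed the rule of cluster 5 over cluster 6, and their summed level differed by a log2 ratio of 2.35 (2.17 to 2.53). *Ccne2*, cyclin E2, a partner of CDK2 at the entry into S phase, had 35.7, 37.4, 58.0 and 57.4 CPM in cluster 5 and 3.39, 4.06, 5.44 and 4.76 in cluster 6 (log2 3.39, 2.96 to 3.85). *Cdca7*, a MYC- and E2F-responsive gene whose protein works with HELLS, had 62.2, 60.6, 61.9 and 70.8 CPM in cluster 5, 14.7, 13.5, 13.4 and 13.9 in cluster 6 and 40.6, 53.9, 43.3 and 51.6 in cluster 1, so it too was lower in cluster 6 than in the larger progenitor cluster.

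*Dtl*, whose protein directs the destruction of the loading factor CDT1, had a log2 ratio of 2.14 (1.73 to 2.57). *E2f8*, a repressor of E2F targets, was instead highest in cluster 2, with 25.8, 22.5, 25.98 and 23.0 CPM against 17.8, 18.0, 17.8 and 11.5 in cluster 5. Its ratio of cluster 2 over cluster 1 (8.22-fold) was the highest of the members, and its share of UMIs in clusters 2, 5 and 6 was 75.3%.

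In cluster 1, both S-phase and mitotic transcripts were above those of the other mature luminal clusters. The S-phase sum was 2.77-fold higher (log2 1.47, 1.44 to 1.49) and the G2 and mitosis sum 2.49-fold higher (log2 1.32, 1.27 to 1.36). Of the S-phase genes 29 of 38 members with enough UMIs passed the 2-fold rule, where 11.9% of 14463 genes passed, as did 16 of 23 G2 and mitosis genes. Another G2 and mitosis gene was at least 2-fold lower in cluster 1. The median log2 ratio was 1.79 for the members, 1.65 for the G2 and mitosis genes and 0.13 for all genes. By summed level the regulators had the highest ratio, 5.14-fold (log2 2.36, 2.23 to 2.49), followed by the nucleotide genes (3.72-fold), the helicase genes (3.02-fold) and the fork and repair genes (2.93-fold). By the median fold of single members the fork and repair group was highest (5.93-fold), ahead of the regulators (5.03-fold), with *Exo1*, an exonuclease, at 9.04-fold. *Ung* was 6.94-fold higher, whereas *Wdr76* was not separated (1.06-fold). Among cells with no UMI of the G2 and mitosis list, which were 68.9% of cluster 1 and 63.2% of the other mature luminal cells, the sum was still 2.03-fold higher (log2 1.02, 0.98 to 1.06), a comparison added after the data were seen. Cells of cluster 1 were shallower, with a median of 1827.5 UMIs in WT, and the part of depth in this ratio was not tested.

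Shares of cells were compared after each cell was thinned to 1000 UMIs, and a cell with 3 or more UMIs of the 39 genes was counted as S-phase-high. Of cluster 5 cells 73.3% were S-phase-high in WT (exact binomial interval 70.2 to 76.4) and 71.6% in mutant libraries (68.0 to 74.97). The shares were 51.4% and 51.5% in cluster 2, 23.2% and 23.3% in cluster 6, 13.4% and 12.9% in cluster 1, and 5.08% and 5.99% in luminal intermediate cells. In cluster 10, where the summed level of these genes was lowest, 0.93% and 0.64% of cells were counted, at median depths of 3663 and 4017 UMIs. Whether these cells are background or cells in S phase was not tested. Without thinning the shares were 98.3% and 98.8% in cluster 5, 89.6% and 86.6% in cluster 2, 79.0% and 83.6% in cluster 6, and 14.5% and 16.4% in cluster 10, at the full depth of each cell. Thinning left out 36 and 9 WT cells and 166 and 86 mutant cells with fewer UMIs. The cut makes a range of 1 measure and not a cell type.

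Combining this with a cut on UMIs of the G2 and mitosis list separated the dividing clusters further. This cut was stricter than the 2 UMIs of the split described next, so fewer cells were mitotic-high by it, and the shares depend on it. At 2 UMIs, 39.3% of cluster 5, 92.9% of cluster 6 and 91.5% of cluster 2 cells were mitotic-high. In WT cluster 5, 51.3% of cells were S-phase-high without being high in mitotic transcripts, 22.0% were high in both and 4.16% in mitotic transcripts alone. In WT cluster 6 those shares were 1.95%, 21.3% and 64.7%, and in WT cluster 2 they were 12.8%, 38.6% and 46.5%. The mutant shares were 49.6%, 21.9% and 4.39% in cluster 5, and 1.70%, 21.6% and 62.7% in cluster 6.

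Within cluster 5, cells high in mitotic transcripts (2 or more UMIs after thinning, 581 cells) were compared with cells that had none (548 cells). The members' values did not enter the split, but they could have helped to place cells in the cluster. The summed S-phase level was 4736 CPM against 3597 CPM (log2 0.40, interval 0.36 to 0.43). The ratio was above 0 in all 4 libraries in 24 members and in 16.4% of the 7434 genes with at least 50 UMIs on the higher side, and below 0 in all 4 in 2 members and in 10.3% of the genes. *Clspn* had the highest ratio, with 124 CPM in the mitotic-high and 53.7 in the other cells (log2 1.20, 0.93 to 1.48), followed by *Rrm2* with 385 and 170.3 CPM (1.18, 1.03 to 1.33) and *Tyms* with 178 and 81.6 CPM (1.13, 0.91 to 1.35). The helicase ring genes hardly differed, with log2 ratios of 0.03 for *Mcm4*, 0.05 for *Mcm2*, 0.10 for *Mcm5* and 0.12 for *Mcm6*, whose intervals all included 0. *Ung* was lower in the mitotic-high cells, at 125 against 153 CPM (-0.29, -0.49 to -0.10), and *Hells*, the other of those 2, had a ratio whose interval included 0 (-0.15, -0.31 to 0.01). *Casp8ap2* had a log2 ratio of -0.08 (-0.43 to 0.27). The median depth was 5814 UMIs in the mitotic-high and 4906 in the other cells, and its part in the ratios was not tested.

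The same split ran the other way in cluster 2 and in the same direction in cluster 6. In both clusters few cells had no mitotic UMI, and the same limit holds. In cluster 2 the S-phase sum was lower in the 833 mitotic-high cells than in the 26 cells with none, at 2874 against 6847 CPM (log2 -1.25, -1.38 to -1.12), and it was lower in all 4 libraries. In cluster 6 the sum was 1665 CPM in 1670 mitotic-high cells and 1408 in 42 cells with none (log2 0.24, 0.08 to 0.40). The difference in direction between the clusters was not tested.

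**Figure D4:**
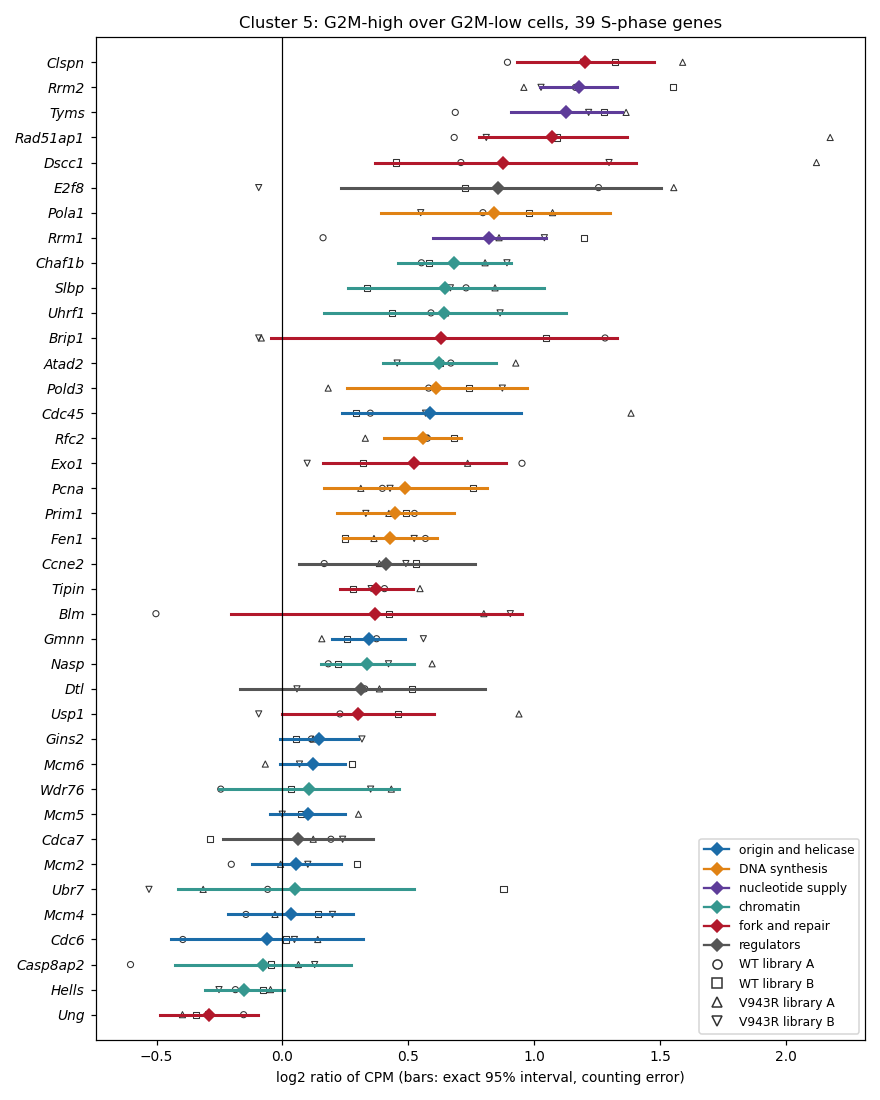
Log2 ratio of each member in cluster 5 cells with 2 or more G2 and mitosis UMIs over cells with none, after thinning, sorted and coloured by role, with the value over all libraries (diamond), its 95% counting interval (bar) and single libraries (open symbols). Members run from -0.29 for *Ung* to 1.20 for *Clspn*, with the *Mcm* genes near 0 and *Rrm2*, *Tyms* and *Rad51ap1* above 1.

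The 5 of the other replication genes with most UMIs varied in how far they differed between clusters. *Lig1*, the ligase that joins Okazaki fragments, had 392 CPM in WT and 348 in mutant cluster 5, 158 and 129 in cluster 6, and 32.6 and 34.7 in the other mature luminal clusters. *Dut*, which keeps uracil out of the nucleotide pool, had 440.1 and 425 CPM in cluster 5 and 312 and 278 in cluster 6. *Dnmt1*, the maintenance DNA methyltransferase, had 221 and 194 CPM in cluster 5 and 119 and 113 in cluster 6, and *Rpa3*, a subunit of the single-strand binding complex, 110.4 and 104 against 99.8 and 88.8. *Tonsl*, in contrast, had 202 and 188.5 CPM in cluster 5 and 218 and 205 in the other mature luminal clusters.

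Between genotypes the S-phase level differed little in any class. In all cells the mutant sum was 1.05-fold that of WT (992 and 1060 against 963 and 995 CPM, log2 0.07, 0.05 to 0.08), and 1 mutant library lay between the WT libraries. The log2 ratio was 0.02 (-0.01 to 0.05) in luminal progenitors, -0.03 (-0.08 to 0.03) in luminal intermediate cells and 0.06 (0.05 to 0.08) in mature luminal cells, and the libraries overlapped in each. Cluster 11, which was low in these genes at 447, 419, 448 and 482 CPM, had 2863 WT and 670 mutant cells. Without it the log2 ratio was -0.01 in all cells and -0.04 in mature luminal cells.

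Inside the dividing clusters the mutant sum was 1.04-fold that of WT in cluster 2 (log2 0.06, 0.00 to 0.11), where both mutant libraries were above both WT libraries. It was -0.05 (-0.08 to -0.02) on the log2 scale in cluster 5, with overlapping libraries, and -0.09 (-0.14 to -0.05) in cluster 6, where both mutant libraries were below both WT libraries. The G2 and mitosis list had log2 ratios of -0.11, -0.16 and -0.14 in clusters 2, 5 and 6. Its libraries overlapped in cluster 2, and both mutant libraries were below both WT libraries in clusters 5 and 6.

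In luminal cells outside the dividing clusters the G2 and mitosis list was higher in the mutant, while the S-phase list differed little. In luminal intermediate cells the G2 and mitosis sum was 403 and 332 CPM in WT and 522 and 559 in mutant libraries (log2 0.55, 0.48 to 0.62), beside the S-phase difference of -0.03. In cluster 1 the values were 0.27 (0.20 to 0.35) for the mitotic and 0.00 (-0.04 to 0.04) for the S-phase list, and in the other mature luminal clusters 0.44 (0.40 to 0.49) and 0.05 (0.02 to 0.08). The ratio of S-phase over G2 and mitosis UMIs in luminal intermediate cells was therefore 0.97 in WT and 0.39 in mutant cells on the log2 scale. In cluster 2 this ratio was -1.38 in WT and -1.22 in mutant cells. The log2 ratios of the lists had opposite signs there, but the libraries of the G2 and mitosis list overlapped.

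Counted by gene, few members differed between genotypes, with a rule of 1.5-fold, at least 50 UMIs in the higher genotype and both libraries of 1 genotype beyond both of the other. In luminal progenitors 2.83% of 11219 genes passed and 0 of 39 members did. In luminal intermediate cells 3.86% of 10519 genes and 0 of 28 members passed, and 10 of 18 G2 and mitosis genes were higher in the mutant. In mature luminal cells 4.46% of 15065 genes and 1 of 39 members passed. In cluster 2 the numbers were 2.99% of 6430 genes and 1 of 29 members, in cluster 5 3.06% of 8298 genes and 2 of 39 members, and in cluster 6 3.31% of 9372 genes and 0 of 34 members. With 0 to 2 members in each set, the counts do not stand apart from the shares of all genes. The members past the rule were *Ccne2*, *Dscc1* and *Pcna*.

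*Ccne2* (chr4:11191351-11204779, plus strand, GRCm38) was higher in the mutant in mature luminal cells, at 4.01 and 4.99 CPM in WT and 7.57 and 7.79 in mutant libraries (log2 0.76, 0.53 to 1.00). In cluster 5 the log2 ratio was 0.66 (0.36 to 0.96), from 161 WT and 224 mutant UMIs, with no overlap between libraries. In luminal progenitors it was 0.06 (-0.36 to 0.49), with WT libraries at 14.1 and 8.03 CPM on both sides of the mutant libraries at 11.9 and 10.996. The gene overlaps *Ints8* on the opposite strand.

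*Dscc1*, which encodes part of an alternative clamp loader (chr15:55076099-55090491, minus strand), was lower in mutant cluster 5, at 29.9 and 28.4 CPM in WT and 17.3 and 19.1 in mutant libraries (log2 -0.67, -1.11 to -0.24; 128 and 71 UMIs). Over all cells its log2 ratio was -0.10 (-0.35 to 0.15), with overlapping libraries. *Pcna* (chr2:132249162-132253314, minus strand) was higher in mutant cluster 2, at 36.7 and 36.9 against 61.7 and 52.4 CPM (log2 0.62, 0.19 to 1.07; 73 and 114 UMIs), and did not pass without mutant library A. In cluster 5 its log2 ratio was 0.24 (-0.03 to 0.51), in cluster 6 0.07 (-0.32 to 0.46) and in cluster 1 it was -0.00 (-0.32 to 0.31). Over all cells the log2 ratio of *Pcna* was 0.28 (0.16 to 0.40), with both mutant libraries above both WT libraries.

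*Pcna* counts are uncertain because the processed copy *Pcna-ps2* was listed with 1133 UMIs beside 2300 of *Pcna*. The sum of both genes in cluster 2 was 60.4 and 56.4 CPM in WT and 88.7 and 81.8 in mutant libraries, a log2 ratio of 0.54 (0.19 to 0.89). This is under 1.5-fold, so *Pcna* summed with its copy did not pass the rule in cluster 2. Of the 39 members 18 overlap another annotated gene, 14 of them one on the opposite strand, and whether counting used strand was not given in the sources used here.

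**Figure D5:**
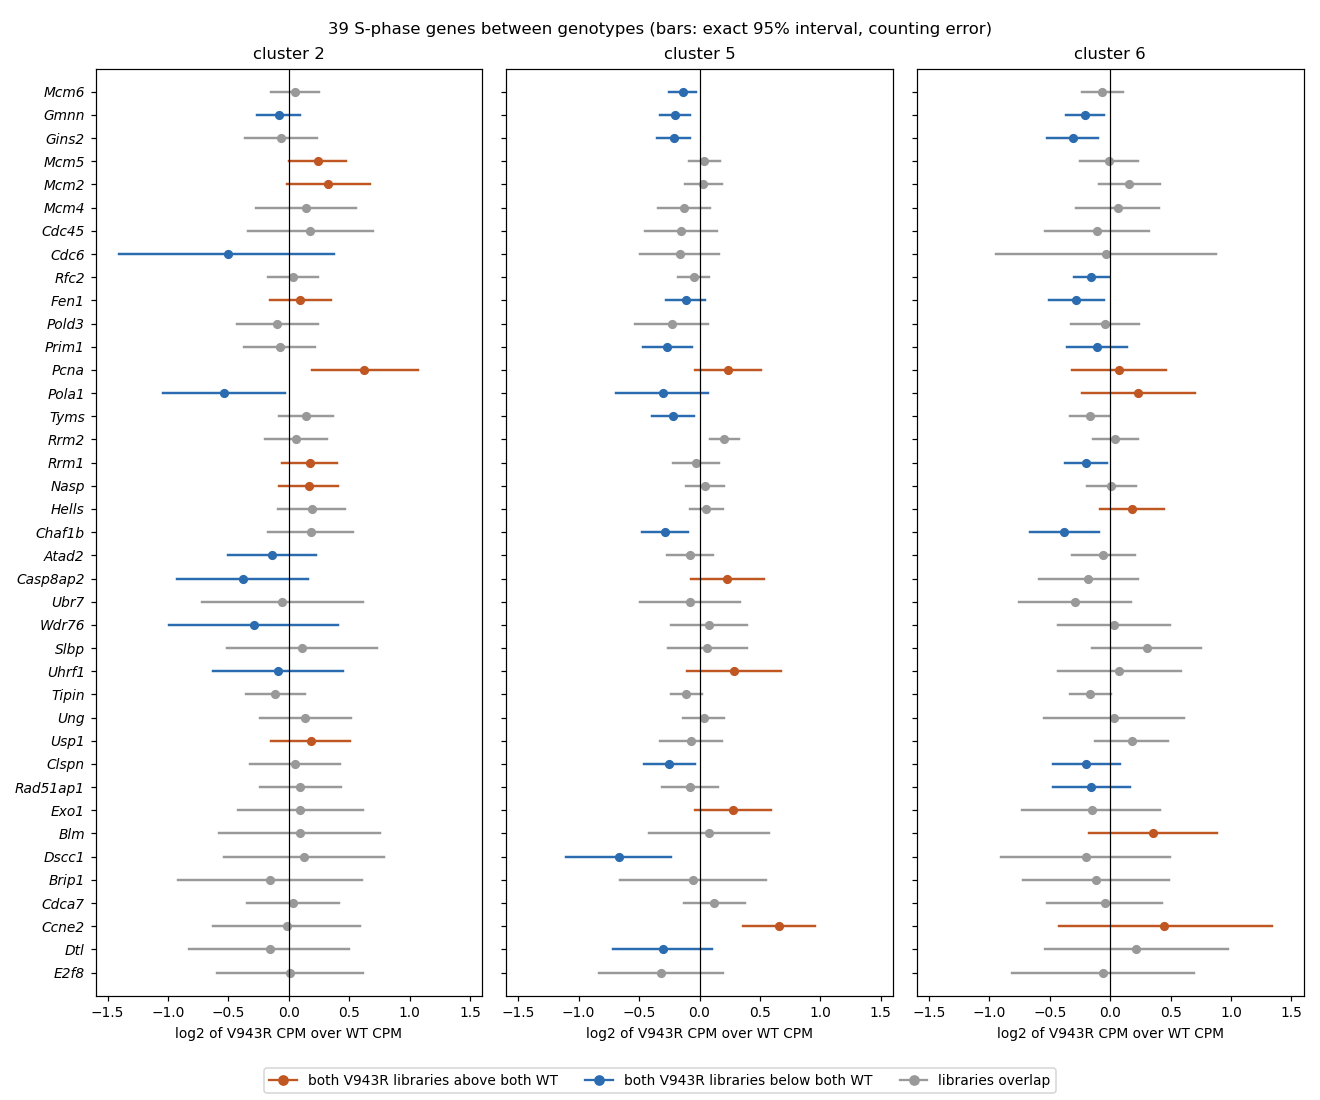
Log2 ratio of mutant over WT CPM for each of the 39 members in clusters 2, 5 and 6, with exact 95% counting intervals (bars); orange marks members with both mutant libraries above both WT libraries, blue those with both below, and grey those whose libraries overlap. *Pcna* in cluster 2 (0.62) and *Ccne2* and *Dscc1* in cluster 5 (0.66 and -0.67) are the members past the rule in these clusters, and most other intervals include 0.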

How the data were processed

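Luminal cells were profiled with the 10x 3′ v2 chemistry. The authors deposited 1 table of normalised signal per gene and cell, with rows for library, cluster and cell type; the submitters' processing notes name CASAVA 1.8, bcl2fastq 2.20, GSNAP and GRCm38. Each cell's signal was divided by its smallest value above 0, and 100% of 60853305 values lay within 0.02 of a whole number, taken as UMIs. UMIs were summed per library and cluster and expressed per 1000000. Intervals are exact 95% Poisson, binomial or conditional binomial intervals and cover counting error only; with 1 pool of 3 mice per genotype no test was made. Doublets were not removed by a caller; leaving out the 5% deepest cells was an alternative, beside others on scaling, cuts, depth and single libraries. Members, lists and rules were chosen with earlier results of these data known. Named were the members with most UMIs per role, the extremes of the share in clusters 2, 5 and 6 and of the split by mitotic transcripts, and members past the genotype rule; other members named for an extreme or exception were chosen after their values were seen. Scripts were tested on simulated data, with scipy 1.17.1, numpy 2.4.6, matplotlib 3.10.9 and pandas 2.3.3 under Python 3.11.15.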

Additional observations from a re-analysis of the deposited data

Results flagged for a closer look

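Among 72 comparisons of the mutant over WT log2 ratio between pairs of cell sets, 4 were noted because every mutant library lay on 1 side of both WT libraries in the first set and on the opposite side in the second. The S-phase sum was higher in mutant cluster 2 (0.06) and lower in mutant cluster 6 (-0.09), a difference of 0.15. The helicase genes were higher in mutant cluster 2 (0.06) and lower in mutant clusters 5 and 6 (-0.11 in each), differences of 0.17 and 0.16. The fork and repair genes were lower in mutant luminal intermediate cells (-0.10) and higher in mutant mature luminal cells (0.08), a difference of -0.19. Opposite sides were found in 4.49% of single genes with at least 50 UMIs in both sets, over the same 6 pairs of cell sets (3.03% to 5.91% by pair). All 4 noted values are sums over lists, and the lists and cell sets overlap one another, so the share of single genes is no baseline for them. None of these differences was tested, since each genotype is 1 pool of mice.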

How the results depend on the processing

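Of 263 alternative values for 31 results, 183 stayed within the spread, 78 moved and 2 reversed. The reversals were the mutant over WT S-phase ratio without cluster 11, in all cells (-0.014) and in mature luminal cells (-0.037). A change of sign was counted as a reversal only where the interval of the main value held a single sign. The ratios in luminal progenitors and luminal intermediate cells, whose intervals held both signs, changed sign in some settings and were not counted. No paired analysis was possible because the table names libraries without the replicate numbers of the labels and the results come from no test. The cause of these movements was not tested.

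Log2 ratios without the 3 members with most UMIs were 3.27 for cluster 5 over the other mature luminal clusters, 1.86 for cluster 6 over them, 1.24 for cluster 2 over 1, 1.40 for cluster 5 over 6 and 1.61 for cluster 1 over the other mature luminal clusters. As a mean over members of log2(CPM + 1) they were 3.11, 1.68, 1.24, 1.43 and 1.501. Without the 5% of cells with the most UMIs they were 3.19, 1.79, 1.37 and 1.40 for the first 4. As a mean over cells they were 3.17 for cluster 5 over the other mature luminal clusters, 1.65 for cluster 2 over 1, 1.44 for cluster 5 over 6 and 1.21 for cluster 1 over the other mature luminal clusters. Without the 10% of cells with the fewest UMIs, cluster 2 over 1 was 1.00 and cluster 1 over the other mature luminal clusters 1.63; in cells without a G2 and mitosis UMI the latter was 1.02.

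The genotype ratio in all cells was 0.036 with TMM factors, 0.093 without the 3 members with most UMIs, 0.089 as a median over members and 0.12 without the deepest 5%. It was -0.042 in luminal progenitors without the shallowest 10%, 0.085 in luminal intermediate cells without the deepest 5%, and in mature luminal cells 0.089 without the 3 members and 0.10 without the deepest 5%. S-phase-high shares of clusters 1, 2, 5 and 6 were 23.8%, 68.1%, 85.7% and 42.3% at 2 UMIs, 5.03%, 28.9%, 41.0% and 5.06% at 5 UMIs, and 38.97%, 76.0%, 95.7% and 49.7% when thinned to 2000. S-phase over G2 and mitosis in clusters 2, 5 and 6 was -1.58, 0.88 and -2.50 without the 3 members, and -1.13, 1.51 and -2.01 without *Mki67* and *Top2a*. With a fold threshold below 1.5 the members past the genotype rule were 1 in luminal progenitors, 1 in luminal intermediate, 3 in mature luminal, 4 in cluster 2 and 2 in cluster 6. The share of all genes past that lower threshold was not computed, so these counts have no baseline. Splitting cluster 5 at 1 or more mitotic UMI gave a median of 0.31.

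Leaving out 1 library at a time, the cluster ratios ranged from 3.06 to 3.09 (5 over the other mature luminal clusters), 1.69 to 1.75 (6 over them), 1.13 to 1.19 (2 over 1), 1.34 to 1.37 (5 over 6) and 1.46 to 1.49 (1 over the others). Genotype ratios ranged from 0.019 (without mutant B) to 0.11 (without mutant A) in all cells, with 0.05 without WT A, from -0.012 (without mutant B) to 0.049 in luminal progenitors, -0.078 to 0.024 in luminal intermediate cells, 0.027 (without mutant B, and 0.034 without WT A) to 0.099 in mature luminal cells, 0.030 to 0.085 in cluster 2, -0.091 (without mutant B) to -0.021 (without mutant A) in cluster 5 and -0.10 to -0.083 in cluster 6. Shares ranged from 12.9% to 13.5% in cluster 1, 51.2% to 51.6% in cluster 2, 71.2% to 73.3% in cluster 5 and 23.0% to 23.5% in cluster 6, and S-phase over G2 and mitosis from -1.35 to -1.248, 1.14 to 1.22 and -2.17 to -2.13 in clusters 2, 5 and 6. Counts past the 2-fold rule ranged from 17 to 20 (2 over 1), 37 to 37 (5 over the others), 23 to 25 (6 over the others), 26 to 26 (5 over 6) and 28 to 28 (1 over the others). Counts past the genotype rule ranged from 0 to 1 in luminal progenitors (1 without mutant B), 0 to 1 in luminal intermediate cells (1 without either mutant library), 1 to 1 in mature luminal cells, 0 to 1 in cluster 2 (0 without mutant A), 2 to 3 in cluster 5 and 0 to 2 in cluster 6 (2 without WT A). The split median ranged from 0.40 to 0.45.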
